A study of Mus musculus with 2 samples.

Results

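Integrins, laminins and collagens are the receptors and the main structural proteins through which cells hold to the extracellular matrix. They were read here as 81 genes: 29 integrin genes, 10 laminin genes and 42 collagen genes, of 18193 genes in all that had at least 1 probe set naming 1 gene. The genes were chosen by name alone, from the symbols that begin with Itga or Itgb, with Lama, Lamb or Lamc, or with Col followed by a chain number, and each gene was read from its brightest probe set. The name rule also takes in Itgb1bp1, Itgb1bp2, Itgb3bp and Itgbl1, which encode no integrin subunit, so they are described apart.

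Embryoid bodies, balls of cells that imitate the onset of germ layer formation, were formed in hanging drops from CGR8, an embryonic stem cell line of mouse strain 129 that was kept without feeder cells in serum and leukemia inhibitory factor. One array came from control embryoid bodies in differentiation medium with no added agent, and 1 array from embryoid bodies in the same medium with recombinant FGF10, a fibroblast growth factor, at 100 ng/ml. Both carry the label day 2, while the series' design puts RNA collection 24 hours after treatment of embryoid bodies already 2 days old, so the exact age is not settled by the labels. All cells are of 1 line, and a single array stands for each group, so differences have no replicate check and no test: each difference compares these arrays, not the conditions at large.

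In the early embryo and in embryoid bodies the first basement membrane is laid down by primitive endoderm and lies under the epiblast. Laminins are trimers of an alpha, a beta and a gamma chain that polymerise into a sheet at the cell surface, and type IV collagen forms the covalent network attached to it. Integrins are heterodimers of an alpha and a beta subunit. The alpha subunit largely sets whether a receptor binds laminin, collagen or the RGD motif of fibronectin and vitronectin.

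The main laminin chains and the type IV chains Col4a1 and Col4a2 were within 1.5-fold on the arrays, and the genes past 1.5-fold were integrin subunits and minor collagens. Col4a2 was 1.33-fold lower with FGF10 on its only probe set. The brightest probe set of Col4a1 was lower too, but its other one was not. Of the 81 genes, 31 had a mean signal over the arrays of at least 76.35 (the median for non-control probe sets) and are called kept below. Signal is the MAS5 value of a probe set on a linear scale, and each ratio is the log2 of FGF10 signal divided by control signal, centred on the median of all kept probe sets. Among the 31 kept genes, 3 were at least 1.5-fold higher on the FGF10 array (Itga8, Col4a5 and Col9a3), 2 at least 1.5-fold lower (Itga5 and Itgae), and 26 within 1.5-fold. Over all 11122 kept genes of the arrays, 9980 were within 1.5-fold, so lying within it sets no laminin or type IV chain apart. Of all kept genes 5.41% were 1.5-fold higher and 4.86% 1.5-fold lower. The families' 9.68% and 6.45% rest on 3 and 2 genes, shares too near this background to set the families apart. At 2-fold the families had 1 gene higher, Col4a5, and 1 lower, Itga5, where the shares over all kept genes were 1.32% and 1.29%. The control signal of Col4a5 is under the filter, and with it raised to 76.35 the log2 ratio was 0.68, so that 0 genes were 2-fold higher.

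**Figure D1:**
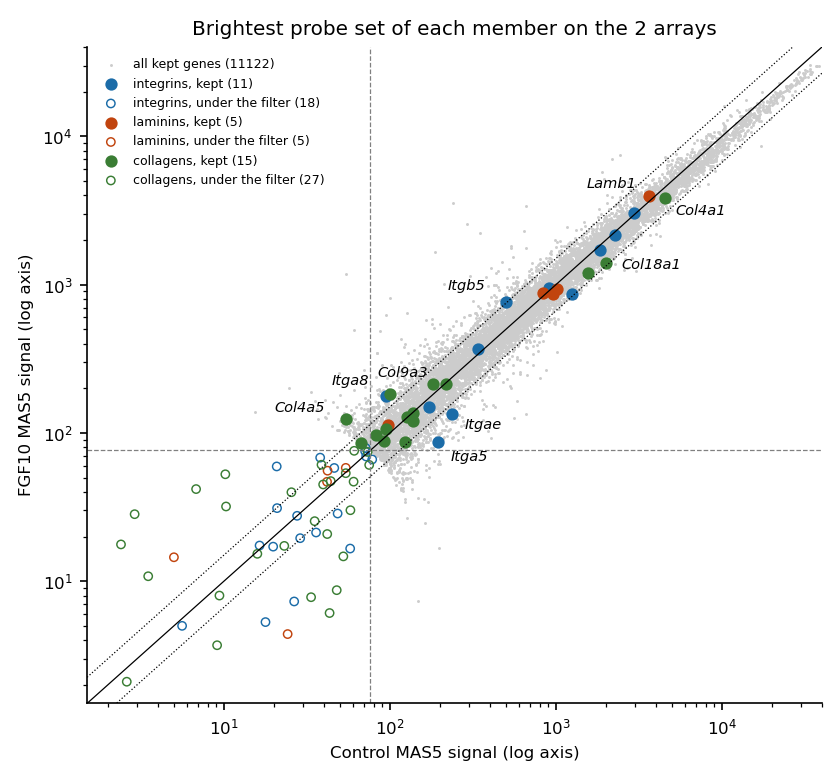
Control signal (horizontal, log axis) against FGF10 signal (vertical, log axis) for the brightest probe set of each gene, with filled points for the 31 kept genes, open points for the 50 genes under the filter, and grey points for all kept genes. The solid line marks equal signal, dotted lines 1.5-fold before centring, and dashed lines the filter of 76.35; Col4a1 and Col18a1 lie below the line of equality and Itgb5 above it, and the open points scatter widely.

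Fewer of the families' genes than of all genes were kept. Kept genes made up 50% of the laminins (5 of 10), 37.9% of the integrins (11 of 29) and 35.7% of the collagens (15 of 42), against 61.1% of all genes. The median log2 ratio was 0.055 for the laminins, -0.12 for the integrins and -0.046 for the collagens, beside -0.027 over all kept genes. The size of the ratio without its sign had a median of 0.16 for laminins, 0.23 for integrins and 0.22 for collagens, beside 0.21 over all kept genes. The laminin ratios ran from -0.18 to 0.20 over 5 genes, of which all but Lamb2 are outside the dimmest signal groups, the integrins from -1.21 to 0.87 and the collagens from -0.56 to 1.17.

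With no replicates, the only error that can be stated is that between probe sets of the same gene. Over the 5213 genes with a second kept probe set, the spread of the difference between both log2 ratios, scaled to a single probe set, gave a probe set SD of 0.27, which ran from 0.41 in the dimmest of 5 signal groups to 0.19 in the brightest. It covers error within these arrays, not variation between cultures. Of the 17 genes in the families with a second kept probe set, 12 had the same sign on it (70.6%), against 65.7% of all genes.

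**Figure D2:**
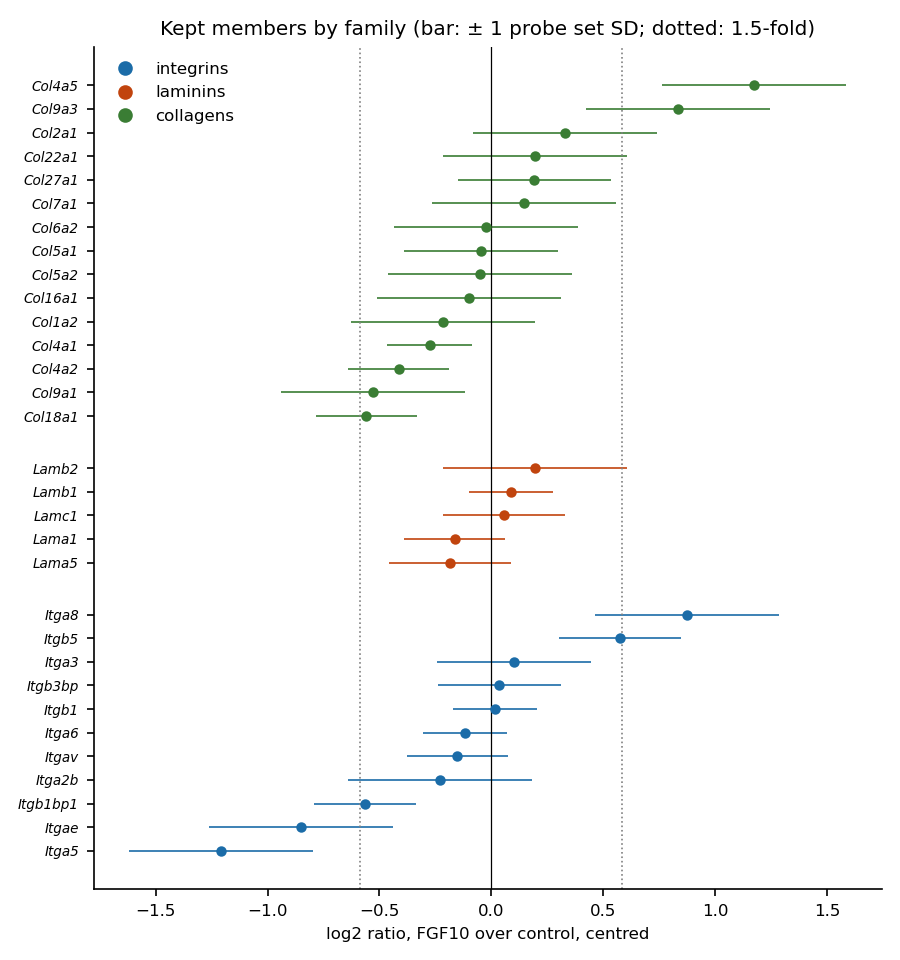
Centred log2 ratio of FGF10 over control (horizontal) for each of the 31 kept genes by family, with bars of 1 probe set SD for the gene's signal group and dotted lines at 1.5-fold. All 5 laminins lie inside the dotted lines, and Itga8, Col4a5, Col9a3, Itgae and Itga5 lie outside them.

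Upstream sequences are shown for Itgb5, Col4a5 and Col18a1, a choice made after their values were seen. The kept probe sets of each lay on the same side of 0, but this does not set them apart. It held for 12 of the 17 genes with a second kept probe set, and the others, such as Itgae, are not shown. The sequences are RefSeq windows of build GRCm38.p6, 5′ to 3′ on the gene's strand, and hold only letters before every annotated start of the gene. Capitals mark matches on either strand to the motif GGGCGG (GC box), to the motif CCAAT, named by its letters, or to the motif TATAAA, which is the TATA box. The Itgb5 stretch is chr16:33829415-33829664 (plus strand), that of Col4a5 is chrX:141475169-141475369 (plus strand) and that of Col18a1 is chr10:77166531-77166780 (minus strand).
Itgb5: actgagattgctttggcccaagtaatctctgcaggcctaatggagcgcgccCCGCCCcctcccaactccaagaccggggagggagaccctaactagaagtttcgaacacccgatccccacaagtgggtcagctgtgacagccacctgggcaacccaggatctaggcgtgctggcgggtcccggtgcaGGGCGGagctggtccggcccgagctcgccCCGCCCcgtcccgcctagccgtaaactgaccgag
Col4a5: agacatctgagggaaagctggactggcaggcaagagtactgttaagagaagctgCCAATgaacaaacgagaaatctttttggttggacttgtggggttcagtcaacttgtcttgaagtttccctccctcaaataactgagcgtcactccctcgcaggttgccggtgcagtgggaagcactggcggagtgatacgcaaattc
Col18a1: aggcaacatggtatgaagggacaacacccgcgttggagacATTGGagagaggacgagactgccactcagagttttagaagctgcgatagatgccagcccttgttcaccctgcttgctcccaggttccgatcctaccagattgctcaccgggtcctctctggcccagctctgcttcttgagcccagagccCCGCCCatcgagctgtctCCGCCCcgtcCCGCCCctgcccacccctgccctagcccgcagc

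The Itgb5 stretch of 250 bases has 3 GC box matches and no CCAAT or TATA match. The Col18a1 stretch, also of 250 bases, has 3 GC box matches and 1 CCAAT match on the opposite strand. The Col4a5 stretch of 201 bases has 1 CCAAT match and none to the other motifs. Of 27025 genes in the RefSeq table, each taken by the window listed first for it, 32.9% hold a GC box in the 250 bases upstream, 34.5% a CCAAT box and 13.0% a TATA box, and in the 201 bases that match the Col4a5 stretch the shares are 24.7%, 29.0% and 9.52%. A window was found for 23 of the 31 kept genes and for 36 of the 50 under the filter. A GC box was present in 15 of the 23 (65.2%) and in 14 of the 36 (38.9%), beside 61.9% of all kept genes and 29.8% of all genes under the filter. These matches describe the letters of the window and say nothing of which factor acts there.

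None of the 5 kept laminins was past 1.5-fold, beside 10.3% of all kept genes. With so few genes this count does not set the laminins apart. Lama1, the alpha chain of the earliest embryonic laminin, had a control signal of 1017.3 and an FGF10 signal of 929.5, which gives a log2 ratio of -0.16 (probe set SD 0.23). Lamb1, the beta chain that pairs with it, went from 3644 to 3963.2 (0.087, SD 0.19), with 0.16 and 0.31 on its other kept probe sets. Lamc1, the gamma chain shared by most laminins, had signals of 830 and 883.1 (0.055, SD 0.27) and a ratio of 0.38 on its dimmer probe set. None of these ratios of the brightest probe sets exceeds its SD.

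Lama5, the alpha chain of the laminin that epiblast cells themselves make and adhere to, had signals of 953.3 and 859.2 (-0.18, SD 0.27), with -0.33 on its other kept probe set. Lamb2, an alternative beta chain, was dim, at 96.9 and 113.6 (0.20, SD 0.41). The beta and gamma chains thus had ratios above 0 and both alpha chains ratios below 0, all within 1.5-fold. Lama2, Lama3, Lama4, Lamb3 and Lamc3, chains best known from muscle, epidermis, vessels and other later tissues, had mean signals under the filter.

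Among collagens, the type IV chains did not move as a group. Col4a1, which with Col4a2 makes the common trimer of basement membranes, had signals of 4504.3 and 3808.9 on its brightest probe set (a log2 ratio of -0.28, SD 0.19). Its other kept probe set gave 1065.1 and 1128.6 (0.049), so the probe sets of Col4a1 differ in sign. Col4a2 had 1 probe set, at 1552.5 and 1192.6 (-0.41, SD 0.23), lower by 1.33-fold. Both values of the brightest probe sets are within 1.5-fold and both exceed their SD.

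Col4a5, a chain of the type IV trimers found in kidney and some other specialised basement membranes, was kept through its FGF10 signal. Its brightest probe set went from 54.1 to 125, a log2 ratio of 1.17 (SD 0.41) or 2.26-fold, and its other kept probe set from 59.1 to 99.8 (0.72). Both control signals lie under the filter of 76.35, a range in which signal and background are not separated, so the ratio has no known size. As measured it is the highest ratio of the 31 kept genes, and with the control signal raised to 76.35 (0.68) it lies below Itga8 (0.87) and Col9a3 (0.83). Col4a6 had signals of 73.4 and 74.4 and Col4a3 and Col4a4 were dimmer still, all under the filter.

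The type IV genes lie in the genome as head-to-head pairs, each pair transcribed in opposite directions from neighbouring starts. The RefSeq promoter windows of Col4a1 and Col4a2 share 78 bases, and those of Col4a5 and Col4a6 share 0. The genes of the overlapping windows had ratios of -0.28 and -0.41 on their brightest probe sets, with 0.049 on the other of Col4a1, and Col4a6 was under the filter.

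Col18a1, a basement membrane collagen that carries endostatin at its end, was lower on the FGF10 array on both of its probe sets. Signals were 2014.3 and 1400.5 on the brightest (-0.56, SD 0.23, 1.47-fold lower) and 1365.6 and 986.5 on the other (-0.50). The ratio exceeds the SD, and both probe sets lie just inside the 1.5-fold threshold.

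Type IX collagen, a minor component on the surface of cartilage fibrils, gave opposite values for its chains. Col9a3 went from 100.2 to 183 (0.83, SD 0.41, 1.78-fold), read by 1 kept probe set. Col9a1 had 122.5 and 87 (-0.53, SD 0.41) on its brightest probe set and 67.8 and 85.9 (0.31) on the other, so its probe sets disagree in sign. Col9a2 was under the filter.

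The fibrillar collagens of connective tissue were dim or within 1.5-fold. Of 11 such genes 5 were kept, with ratios from -0.22 to 0.33 and a median of -0.046 on the probe sets taken as brightest. Col1a2, a chain of the main fibril of bone and skin, had 136.8 and 120.5 (-0.22), and its partner Col1a1 was close to the bottom of the signal range at 9.4 and 8. Col5a1 and Col5a2, chains that sit inside such fibrils, were at -0.046 and -0.052. The other kept probe set of Col5a1 is equally bright and gave 241.6 and 188.8 (-0.39). Only the order of probe set names decided which of them was taken. Col2a1, the cartilage collagen, had 66.8 and 85.9 (0.33, SD 0.41). Its control signal is under the filter, and with that signal raised to 76.35 the ratio was 0.14. Col27a1 had 181.9 and 212.9 (0.19), with 0.55 on its second probe set.

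The other kept collagens were Col22a1 (0.19), Col7a1 of anchoring fibrils (0.15), Col6a2 of beaded filaments (-0.023, and -0.58 on its other probe set) and Col16a1 (-0.10). All 4 transmembrane collagens, all 3 short-chain collagens of types VIII and X, Col15a1, Col26a1, and the remaining type VI and FACIT chains (collagens that sit on fibrils) were under the filter. Thus 27 of 42 collagens gave no usable ratio.

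Integrin beta subunits are shared between receptors. Itgb1, the partner of most alpha subunits, had signals of 2945 and 3048.9 (0.016, SD 0.19), and -0.16 on its second probe set. Itgb5, which pairs with the alpha v subunit to bind vitronectin, was higher on the FGF10 array on all 4 of its probe sets. Its signals were 496.8 and 758.4 on the brightest, a log2 ratio of 0.58 (SD 0.27) or 1.49-fold.

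The other probe sets of Itgb5 gave 343.8 and 730.7 (1.05), 382.8 and 649.7 (0.73), and 244.8 and 440.6 (0.81). On the brightest probe set the ratio falls just short of 1.5-fold, and the other 3 pass it. Those at 1.05 and 0.73 are of the _x_at type, which is left out in 1 of the settings below, and the one at 0.81 is not. Itgb5 is therefore not in the count of higher genes. Itgb3, Itgb4, Itgb6 and Itgb8 were under the filter.

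The laminin-binding alpha subunits were nearly equal on the arrays. Itga6, the main laminin receptor subunit of embryonic stem cells, had 2274.9 and 2147.3 (-0.12, SD 0.19) and -0.27 on its other kept probe set. Itga3 had 337.6 and 370.6 (0.10, SD 0.34), with -0.059 on the other. Itga7, known from muscle, was under the filter, as were the collagen-binding subunits Itga1, Itga2 and Itga10.

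The RGD-binding alpha subunits were spread on both sides. Itga8, a receptor subunit for nephronectin and fibronectin, went from 95 to 178.3 (0.87, SD 0.41, 1.83-fold), read by 1 kept probe set. Itga5, the subunit of the classical fibronectin receptor, went from 195.1 to 86.6 (-1.21, SD 0.41, 2.31-fold lower). Its next probe set, under the filter, had 69.9 and 63.6, and the brightest is of the _s_at type, which can read more than 1 transcript.

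Itgav, the alpha v subunit that joins several beta subunits, had 1842.5 and 1698.1 (-0.15, SD 0.23) on its brightest probe set and 148.4 and 197.5 (0.38) on its second, so its direction is not settled. Itga2b, the platelet subunit, had 171 and 149.5 (-0.23, SD 0.41). Itgae, a subunit best known from lymphocytes that bind E-cadherin, went from 235.3 to 133.7 (-0.85, SD 0.41, 1.80-fold lower) and from 133.7 to 98.1 (-0.48) on its other probe set. Its brightest probe set is also of the _s_at type. Without the _x_at and _s_at types, 0 integrin genes were 1.5-fold lower. The other leukocyte subunits, Itgal, Itgam, Itgax, Itgb2, Itgb2l and Itgb7, and the subunits Itga4 and Itga9 were under the filter.

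Of the names that encode no subunit, Itgb1bp1, an inhibitor of beta 1 integrin activation, had 1246 and 863 (-0.56, SD 0.23, 1.48-fold lower), and Itgb3bp, a centromere protein, had 904.1 and 949.1 (0.036). Itgb1bp2 and Itgbl1 were under the filter. With the 9 kept subunit genes alone the integrin median was -0.12, equal to that of all 11.

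**Figure D3:**
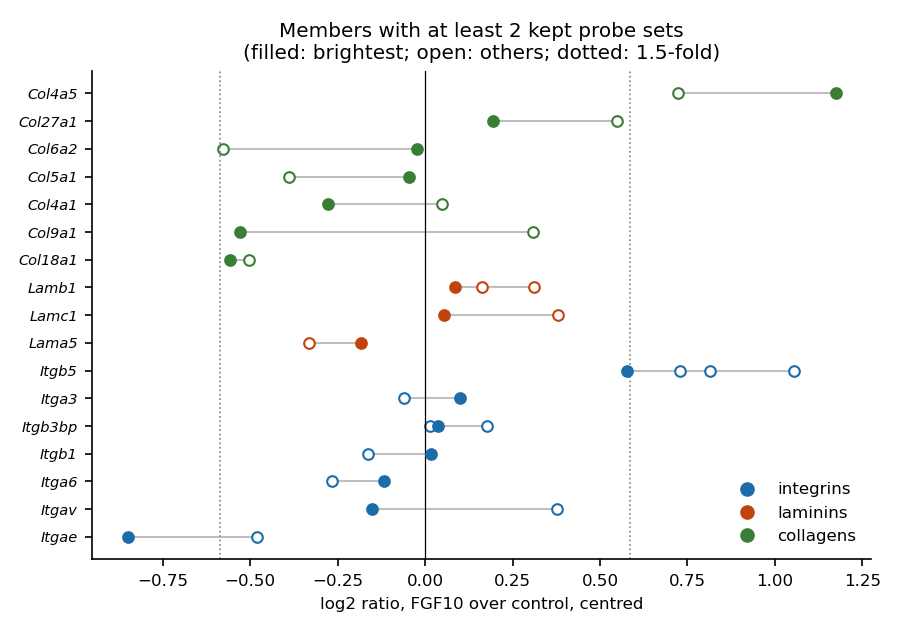
Centred log2 ratio (horizontal) of every kept probe set for the 17 genes with at least 2 of them, filled for the brightest and open for the others, with dotted lines at 1.5-fold. Itgb5 and Col4a5 lie to the right and Col18a1 and Itgae to the left on all their probe sets, whereas Col4a1, Col9a1, Itgav, Itga3 and Itgb1 fall on both sides of 0.

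Partners outside the families were read from lists of other matrix and adhesion genes. Of 15 extracellular partners, 13 were kept, and their median was -0.0015. Of the 13, 3 were at least 1.5-fold higher and 1 was lower, beside 5.41% and 4.86% of all kept genes. Fn1, fibronectin, had 938 and 1605 (0.74) on its brightest probe set and 164.2 and 586.1 (1.80) on the other. Frem2, a protein of the embryonic epithelial basement membrane, had 161.9 and 427.3 (1.37), and Nid1, a linker of laminin to type IV collagen, had 135 and 215.7 (0.64) but -0.16 on its second probe set.

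Bcam, a receptor for Lama5, was the lower one, at 189.7 and 113.5 (-0.78). Hspg2, the proteoglycan perlecan, was at -0.39, Nid2 at 0.13 and Dag1, the laminin receptor dystroglycan, at -0.046. Of 20 genes listed as adhesion adaptors, most of which link integrins to actin, 17 were kept, with a median of -0.056. The 17 include Itgb1bp1, described above. On their brightest probe sets 0 were 1.5-fold higher and 1 was lower, beside 5.41% and 4.86% of all kept genes. The lower one was the kinase gene Src (-0.77), whose second probe set gave -0.040. Second probe sets of Tln2 and Tns1 gave 1.21 and 1.02, with control signals of 50.2 and 51.5 under the filter. Tns3 was the highest, at 0.38, with -0.19 on its other probe set. Fermt2, Vcl, Zyx and Pxn lay between -0.12 and 0.11 on their brightest probe sets, with -0.60 on the other of Zyx.

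Markers of the cells that make basement membrane were set beside these values. The marker lists were chosen with earlier results of these data known. Their counts, set beside the shares of all kept genes, describe the lists and are not independent support. In bulk embryoid bodies, fewer cells of a type and less RNA per cell cannot be told apart. The 4 markers given for a basement membrane program, Lama1, Lamc1, Col4a1 and Col4a2, had summed signals of 7904.1 (control) and 6814.1 (FGF10) and a median ratio of -0.22, with none past 1.5-fold. They are members already described, so the sums are not separate evidence. Most of both sums is the brightest probe set of Col4a1 (4504.3 and 3808.9), whose other kept probe set gave 1065.1 and 1128.6 (0.049). All 7 visceral endoderm markers were kept, and on their brightest probe sets all ratios were below 0, with summed signals of 11025.7 and 7278.6. Of the 7, 5 were 1.5-fold lower, beside 4.86% of all kept genes. The median of the 7 was -0.63, with Apoa1 lowest (-1.27) and Afp nearest to 0 (-0.15). Other kept probe sets gave 0.15 and -0.36 for Hnf4a, against -0.90 on its brightest, and 0.18 and -0.24 for Afp. Those of Ttr, Apoa1, Cubn and Dab2 were all below 0.

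The 8 parietal endoderm markers had summed signals of 8100.6 and 7763.5, most of it from Sparc, the secreted matrix protein of that tissue (6814 and 6309.2, -0.15). Their median was -0.11 and 6 of 8 ratios were below 0, as were 5951 of all 11122 kept genes. Of the 8 markers, 2 were 1.5-fold higher, Snai1 (1.63, or 1.31 with its control signal of 61 raised to the filter) and Gata6 (0.96), and 1 was lower, Sox7 (-0.61). The shares over all kept genes were 5.41% higher and 4.86% lower. Thbd was at -0.53, or -0.30 with its FGF10 signal of 65 raised to the filter. Gata4 was at -0.47, with 0.29 on its other probe set, Pth1r at -0.085 and Plat at -0.068. Of 7 fibroblast and mesenchyme markers only Thy1 (-0.61) and Pdgfrb were kept, the latter with a control signal of 36.4 under the filter and a ratio of 1.97 as measured and 0.90 with that signal raised, with summed signals of 405.8 and 393.9, and Postn, Lox, Dcn, Lum and Twist1 were under the filter. No list had a marker listed at 0. The 4 stem cell markers summed to 21984 and 23481.4, with 1 of them, Zfp42, at least 1.5-fold lower (-0.71), beside 4.86% of all kept genes. The lower visceral endoderm markers stand beside the lower values of Col4a2 and Col18a1, and their part in those values was not tested.

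**Figure D4:**
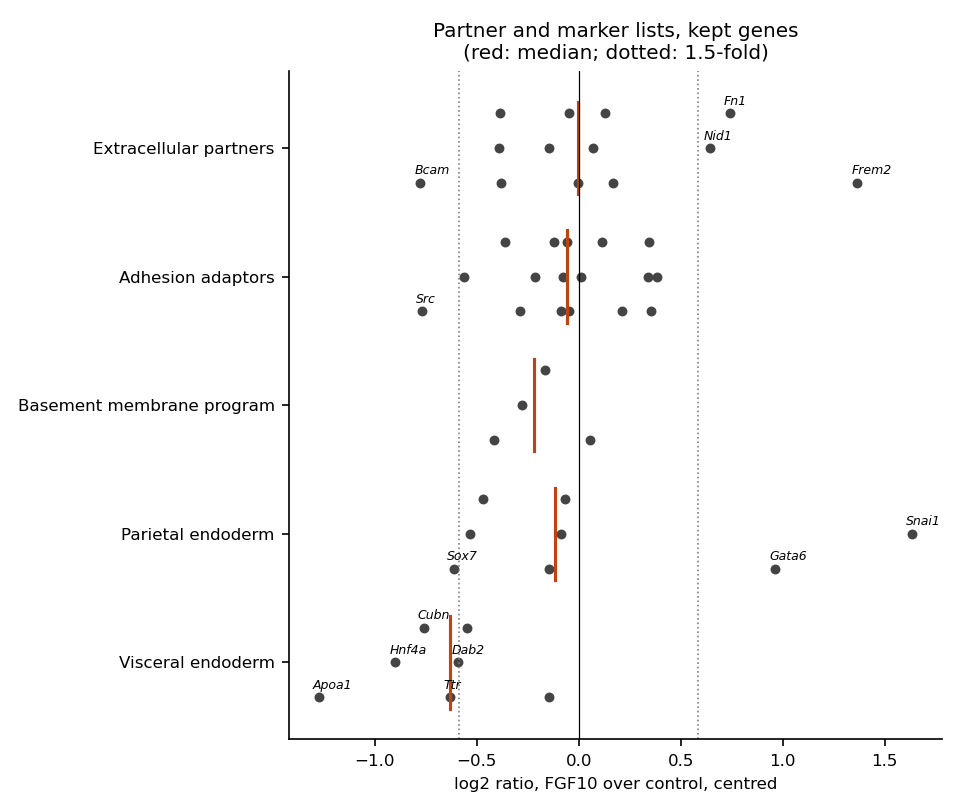
Centred log2 ratio (horizontal) of the kept genes in 5 lists, with the median of each list in red, names at genes past 1.5-fold and dotted lines at that threshold. Each gene is shown by its brightest probe set. The visceral endoderm markers all lie left of 0, and the 4 basement membrane markers lie within 1.5-fold.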

How the data were processed

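Total RNA from 2 samples of embryoid bodies was measured on Affymetrix expression arrays, 1 per group, grouped by the sample titles. The values deposited by the authors are MAS5 signal, per the submitters' processing notes, which give no version or settings. The mean of each array without its lowest and highest 2% is 500.003, so a ratio is relative to the rest of the array. Total counts do not exist for arrays, and their number limits the precision. The arrays hold 45101 probe sets with 64 controls among them; 34945 of the rest named 1 gene in the platform annotation, 932 several and 9160 none. All 81 members had an identifier in the RefSeq gene table.

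Log2 ratios took no offset and were centred on the median (0.034) of the 22524 probe sets with a mean signal of at least 76.35. Differences were counted at a fixed size, with no test. Every laminin, type IV collagen, gene past 1.5-fold, and the 6 highest and lowest kept genes of each family are named, with Itgb1, Itga5, Itga6 and Itgav. Members, lists and thresholds were chosen with earlier results of these data known. The alternatives were other centring, normalization, filters, floors, probe sets and thresholds. Scripts were tested on simulated data and run in Python 3.11.15 with pandas 2.3.3, numpy 2.4.6 and statsmodels 0.14.6.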

Additional observations from a re-analysis of the deposited data

How the results depend on the processing

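No paired analysis was possible because each group has 1 array. The medians of the integrins and of the laminins moved by less than the error expected of them from the probe set SD under all 11 alternatives tried for each. Dropping the centring could not have moved them further, since it shifts all genes by 0.034. The laminin median turned from 0.055 to -0.055 with the filter at the 75th percentile, where 4 laminins were left. The collagen median was -0.41 at that filter, with 3 genes left, and 0.049 with the second brightest probe set where there is one. Counts of genes past 1.5-fold changed most without the signal filter: 3 higher and 8 lower for the integrins, 1 and 1 for the laminins, and 10 and 7 for the collagens, all of the added genes being under the filter. Apart from the 2-fold threshold, no share over all genes was taken under the alternatives. The counts there thus have no background beside them and are not read as a result about the families. With the filter at the 75th percentile 0 integrins and 0 collagens were higher and 0 integrins lower. Requiring both arrays at or above the filter left 1 higher collagen, since the control signal of Col4a5 is under it. The higher integrins numbered 2, with Itgb5 added, with no centring, with the mean over kept probe sets and with the second brightest probe set, and the last left 1 lower integrin. Without _x_at and _s_at probe sets 0 integrins were lower. At 2-fold the integrins had 0 higher and 1 lower gene and the collagens 1 higher. Col4a5 was past 1.5-fold in all 6 settings tried for single genes and Itgae in 5 of 6. Itga5, Itga8 and Col9a3 have 1 kept probe set and both signals above the filter, so only centring and normalization could move them. The centring, at 0.034, is too small to bring them within 1.5-fold. With quantile and loess normalization they stayed past it. Of the 28 named genes, 8 moved beyond their probe set SD with the second brightest probe set, 2 with the mean over kept probe sets, 1 with dim signals raised, and 0 with quantile or loess normalization. Dropping the centring shifts every gene by 0.034, less than the smallest probe set SD of 0.19, so it could move none. The second brightest probe set and the mean could move only genes with a second kept probe set. The SD itself comes from differences between the brightest and second probe sets over all genes. Moves beyond it with the second probe set are therefore common by construction and do not measure robustness. The families have 17 such genes, of which Col5a1 and Col6a2 are not among the 28. Raising dim signals could move only Col4a5 and Col2a1, the named genes with a signal under the filter. Genes under 76.35 in mean signal gave no usable direction, which limits 50 of the 81 members.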
